A study of Mus musculus with 22 samples.

Results

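The 8 genes described here encode receptors with which microglia sense extracellular nucleotides, adenosine and lysophosphatidylserine, and an enzyme that breaks nucleotides down. They were taken by symbol from the deposited table of 54532 genes as P2ry12, P2ry13, P2ry6, Gpr34, P2rx4, P2rx7, Entpd1 and Adora3. All 8 were found, and all 8 were among the 16554 genes that passed the filter on low counts. RNA was sequenced from microglia sorted from the brains of male C57BL/6J mice, the resident macrophages of the brain, taken as live cells with intermediate CD45, with CD11b and without CD11a. At 10 weeks of age the mice were injected intraperitoneally each day for 10 days, either with the Gulf War (GW) agents or with vehicle, and they were then aged to 17.5 months. The GW agents were permethrin at 200 mg/kg and pyridostigmine bromide at 0.7 mg/kg. Some GW mice later received cannabidiol (CBD) at 30 mg/kg, given daily over 28 days and then on alternate days over 2 further weeks, while the remaining mice received its vehicle. On the morning after the last dose each mouse was injected with 0.33 mg/kg lipopolysaccharide (LPS) from Escherichia coli or with PBS, and brains were taken 24 hours later. The 22 libraries formed 6 groups, which were GW mice with CBD and LPS (GW-CBD-LPS, n = 4), GW mice with CBD and PBS (GW-CBD-PBS, n = 3), GW mice with vehicle and LPS (GW-Veh-LPS, n = 3), GW mice with vehicle and PBS (GW-Veh-PBS, n = 4), control mice with vehicle and LPS (Ctrl-Veh-LPS, n = 4) and control mice with vehicle and PBS (Ctrl-Veh-PBS, n = 4). No library of control mice with CBD was analysed here, so values with CBD describe mice that had also received the GW agents.

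As background, ATP and ADP leak or are released from damaged and active cells, and the membrane enzyme CD39, encoded by Entpd1, strips them of phosphates towards AMP, which other enzymes turn into adenosine. P2ry12 and P2ry13 encode receptors for ADP that act through inhibitory G proteins, and P2Y12 is known for drawing the processes of surveying microglia towards sites of injury. P2ry6 encodes a receptor for UDP that is tied to phagocytosis, P2rx4 and P2rx7 encode cation channels opened by ATP, and P2X7 is known for triggering inflammasome activity in macrophages. Gpr34 encodes a receptor for lysophosphatidylserine, and Adora3 encodes the A3 adenosine receptor. P2ry12 and Gpr34 are widely used as markers of homeostatic microglia in mice.

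Each library held between 28676930 and 40458326 reads counted to genes. All 9 genes of a microglial marker list that holds none of the 8 genes (Tmem119, Cx3cr1, Csf1r, Sall1, Fcrls, Siglech, Olfml3, Sparc and Slc2a5) were detected in every group, with summed levels of 21740 to 38402 CPM (a gene's reads scaled to a common library size). Markers of other cells summed to at most 6.93 CPM for neurons, 60.7 for endothelium, 78.9 for lymphocytes, 275 for astrocytes, 581 for border macrophages, 595 for oligodendrocytes, 1765 for erythroid cells and 1883 for monocytes. Neutrophil markers (12 genes) stood apart in 3 libraries, with sums of 1775 CPM in GW-Veh-PBS replicate 1, 2660 CPM in Ctrl-Veh-LPS replicate 1 and 25959 CPM in Ctrl-Veh-PBS replicate 3, while the remaining libraries had 4.15 to 340 CPM. For the 8 genes, a call lost without those 3 libraries is given beside its value. The number of mice behind a library is not stated in the labels, and the p-values therefore describe spread among libraries that may in part be technical.

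In mouse genome build GRCm38, P2ry12 (ENSMUSG00000036353, chromosome 3, 59216272 to 59262871, minus strand) and P2ry13 (ENSMUSG00000036362, chromosome 3, 59207892 to 59210882, minus strand) are neighbours, and both lie inside the span of Med12l on the opposite strand. Gpr34 (ENSMUSG00000040229, chromosome X, 13632089 to 13640858, plus strand) lies inside Cask, again on the opposite strand. P2rx7 (ENSMUSG00000029468, chromosome 5, 122643911 to 122691432) and P2rx4 (ENSMUSG00000029470, chromosome 5, 122707544 to 122729738) follow each other on the plus strand. P2ry6 (ENSMUSG00000048779, chromosome 7, 100937630 to 100974649, minus strand), Entpd1 (ENSMUSG00000048120, chromosome 19, 40612366 to 40741602, plus strand) and Adora3 (ENSMUSG00000000562, chromosome 3, 105870858 to 105908926, plus strand) complete the set. All 8 are protein coding in GENCODE M21.

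Promoter sequence was at hand for 6 of the 8 genes, and 4 promoters are shown, 2 of genes that were lower with LPS in control mice (P2ry12 and P2ry13) and 2 of genes that were higher (P2rx4 and Adora3). Entpd1, which was also lower, has 2 annotated start sites and is given by its matches alone. The sequences are the 250 bases upstream of the start site annotated by RefSeq on build GRCm38.p6, written 5′ to 3′ on the strand of the gene. Capitals mark the ETS core GAGGAA, which the myeloid factor PU.1 can bind, and the NF-kB-type motif GGGANNTTCC, each searched on both strands. The 4 windows are chr3:59262986-59263235 (minus) for P2ry12, chr3:59210883-59211132 (minus) for P2ry13, chr5:122707294-122707543 (plus) for P2rx4 and chr3:105904171-105904420 (plus) for Adora3.
P2ry12: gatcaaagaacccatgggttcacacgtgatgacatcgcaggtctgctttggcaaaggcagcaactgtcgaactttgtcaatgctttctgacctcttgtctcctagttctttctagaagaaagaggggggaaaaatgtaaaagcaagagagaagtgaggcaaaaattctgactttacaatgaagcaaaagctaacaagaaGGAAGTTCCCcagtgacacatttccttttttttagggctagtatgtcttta
P2ry13: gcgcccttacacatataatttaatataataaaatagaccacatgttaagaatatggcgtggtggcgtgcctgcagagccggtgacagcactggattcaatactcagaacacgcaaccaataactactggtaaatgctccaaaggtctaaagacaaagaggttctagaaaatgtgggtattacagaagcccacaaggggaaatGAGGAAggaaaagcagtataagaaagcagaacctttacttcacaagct
P2rx4: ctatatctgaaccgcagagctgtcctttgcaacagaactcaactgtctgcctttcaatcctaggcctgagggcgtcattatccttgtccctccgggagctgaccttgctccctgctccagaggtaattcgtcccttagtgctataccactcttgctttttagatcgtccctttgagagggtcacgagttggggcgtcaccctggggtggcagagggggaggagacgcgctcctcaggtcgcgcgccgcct
Adora3: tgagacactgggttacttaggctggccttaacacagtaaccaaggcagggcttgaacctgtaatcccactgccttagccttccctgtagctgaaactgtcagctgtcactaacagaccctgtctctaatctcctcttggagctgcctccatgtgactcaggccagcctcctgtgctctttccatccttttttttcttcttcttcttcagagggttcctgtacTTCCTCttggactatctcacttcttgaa

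The P2ry12 window held 1 match to GGGANNTTCC and none to GAGGAA, whereas the P2ry13 and Adora3 windows each held 1 match to GAGGAA and none to GGGANNTTCC. The P2rx4 window held neither. The first Entpd1 window held neither, and the second held 2 matches to GAGGAA. Over 32851 RefSeq promoter windows of the same length, 23.3% held GAGGAA and 1.21% held GGGANNTTCC. Of the other motifs searched, TTGCNNAA, a C/EBP-type site present in 9.56% of all windows, occurred in the P2ry12 window, and TGANTCA, an AP-1 site present in 6.75%, occurred in the Adora3 window and in 1 of the 2 P2rx7 windows. These are matches of letters, not measured binding sites.

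In microglia of control mice given PBS, P2ry12 was the most abundant of the 8 transcripts. On a scale that divides CPM by the length of the merged exons in kilobases, P2ry12 averaged 2307 ± 381 CPM per kb (SD, n = 4), followed by P2ry13 at 1066 ± 132 and Gpr34 at 1040 ± 127, whose library values overlapped. P2ry6 followed at 167 ± 11.6 CPM per kb and Entpd1 at 132 ± 13.5, which did not overlap with each other. P2rx7 at 30.3 ± 5.46, P2rx4 at 23.6 ± 1.68 and Adora3 at 21.3 ± 3.04 CPM per kb closed the order, each overlapping with the next. P2ry12, P2ry13 and Gpr34 thus stood well above the genes of the 2 ATP channels. The least abundant, Adora3, still had between 2309 and 4263 reads per library, so counting error was small beside the spread between libraries.

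**Figure D1:**
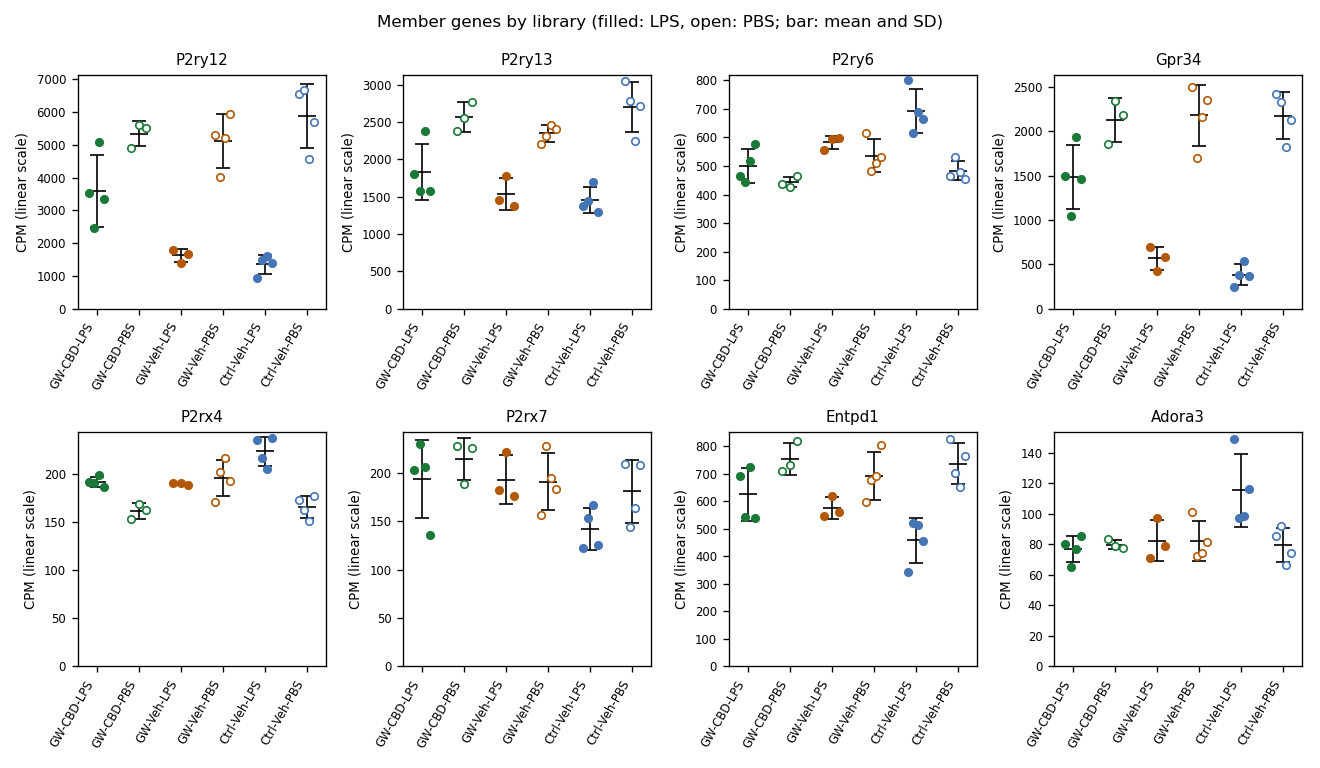
Level of each gene in CPM (linear axis from 0) in all 22 libraries, with filled points for LPS, open points for PBS and bars for mean and SD per group. P2ry12 and Gpr34 lay at 943 to 1787 and 247 to 692 CPM in the vehicle LPS libraries, below every GW-CBD-LPS library (2453 to 5076 and 1046 to 1938 CPM).

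The first comparison asked how the sensing genes differ 24 hours after LPS in control mice. P2ry12, P2ry13, Gpr34 and Entpd1 were lower in Ctrl-Veh-LPS than in Ctrl-Veh-PBS, while P2ry6, P2rx4 and Adora3 were higher. At an adjusted p under 0.05 (edgeR's quasi-likelihood test, Benjamini-Hochberg over all tested genes), 7 of the 8 genes were called, 3 higher and 4 lower, against 20.4% of all tested genes (10.8% higher and 9.62% lower). For each of the 7 the groups did not overlap, a separation seen upwards in 12.2% and downwards in 10.8% of all tested genes. The median log2 fold change of the 8 genes was -0.52, against -0.02 over all tested genes. In RNA from sorted cell pools, fewer cells of a type and less RNA per cell cannot be told apart.

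Among the ADP receptors, P2ry12 stood at 943, 1469, 1612 and 1388 CPM in the 4 Ctrl-Veh-LPS libraries, against 6563, 6669, 4579 and 5686 CPM in the 4 Ctrl-Veh-PBS libraries. Every LPS library was far below every PBS library, a difference of -2.12 ± 0.20 on the log2 scale (SE, edgeR adjusted p = 5.26e-07), or 4.34-fold lower. P2ry13 was less affected, at 1371, 1440, 1697 and 1293 CPM with LPS against 3043, 2782, 2244 and 2713 CPM with PBS. Its groups did not overlap either (log2 fold change -0.89 ± 0.13, edgeR adjusted p = 7.27e-05). The UDP receptor gene P2ry6 went the other way, with 801, 617, 689 and 666 CPM in Ctrl-Veh-LPS against 465, 531, 480 and 456 CPM in Ctrl-Veh-PBS. It rose by 0.52 ± 0.11 on the log2 scale (edgeR adjusted p = 0.00137), with no overlap between the groups.

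Gpr34, the lysophosphatidylserine receptor gene, showed the largest difference of the 8. It had 247, 377, 536 and 365 CPM in Ctrl-Veh-LPS, against 2419, 2330, 1819 and 2127 CPM in Ctrl-Veh-PBS. The log2 fold change was -2.51 ± 0.22 (edgeR adjusted p = 3.63e-07), or 5.7-fold lower, and the highest LPS library lay well below the lowest PBS library.

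The 2 ATP-gated channel genes differed from each other. P2rx4 had 235, 216, 205 and 237 CPM in Ctrl-Veh-LPS against 173, 162, 151 and 177 CPM in Ctrl-Veh-PBS, a rise of 0.43 ± 0.09 on the log2 scale (edgeR adjusted p = 0.00169) without overlap. P2rx7 had 122, 153, 167 and 125 CPM with LPS against 209, 144, 164 and 208 CPM with PBS. These values overlapped, and the difference of -0.35 ± 0.16 was not called by edgeR (adjusted p = 0.138). Limma's voom with quality weights called P2rx7 lower (-0.48, voom adjusted p = 0.0116), among 4494 genes in all. The ectonucleotidase gene Entpd1 fell by 0.68 ± 0.14 on the log2 scale (edgeR adjusted p = 0.00122), with 343, 520, 515 and 455 CPM in Ctrl-Veh-LPS against 826, 704, 652 and 763 CPM in Ctrl-Veh-PBS. Adora3 had 149, 97.4, 98.6 and 116 CPM in Ctrl-Veh-LPS against 85, 92, 66.6 and 74 CPM in Ctrl-Veh-PBS, with no overlap (0.54 ± 0.15, edgeR adjusted p = 0.0146). The Adora3 call was lost without Ctrl-Veh-LPS replicate 1 (0.39, edgeR adjusted p = 0.0768), without Ctrl-Veh-PBS replicate 3 (0.42, adjusted p = 0.0639) and without all 3 neutrophil-marked libraries (0.30, adjusted p = 0.156), while the other 6 calls held in each of these fits. With only the compared groups in the fit, the Adora3 call was lost as well (0.49, edgeR adjusted p = 0.055).

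The microglial markers moved with these genes: 6 of the 9 were called lower (Siglech, Cx3cr1, Sall1, Slc2a5, Tmem119 and Sparc), and their summed level ranged from 21740 to 29686 CPM in Ctrl-Veh-LPS against 31352 to 38234 CPM in Ctrl-Veh-PBS. The part of this shift in the differences of the 8 genes was not tested. The median sum was 23617 CPM in Ctrl-Veh-LPS and 34785 CPM in Ctrl-Veh-PBS. Of the markers of other cells, 2 border macrophage genes (Lyve1 and Cbr2) were called higher with LPS, and 4 erythroid, 2 neutrophil, 1 monocyte, 1 lymphocyte and 1 endothelial gene lower. The 2 neutrophil genes, Elane and Camp, stood at 446 and 1362 CPM in Ctrl-Veh-PBS replicate 3. In the other Ctrl-Veh-PBS libraries Elane was at 0 CPM and Camp at 0.671 to 3.2 CPM. The median neutrophil sum was 60.1 CPM in Ctrl-Veh-LPS and 55.3 CPM in Ctrl-Veh-PBS. The part of these marker genes in the differences was not tested.

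In GW mice given vehicle, LPS was followed by lower P2ry12, P2ry13 and Gpr34 again. These 3 of the 8 genes were called, all lower, against 9.53% of all tested genes (5.07% lower), and had no overlap between the groups, against 10.4% of all tested genes in that direction, and the median log2 fold change of the 8 was -0.16 against -0.04 over all tested genes. P2ry12 had 1787, 1397 and 1681 CPM in GW-Veh-LPS, against 5303, 4009, 5195 and 5956 CPM in GW-Veh-PBS. The groups were widely separated, by -1.66 ± 0.21 on the log2 scale (edgeR adjusted p = 9.39e-05), or 3.15-fold. Gpr34 had 692, 423 and 580 CPM in GW-Veh-LPS, against 2493, 1702, 2164 and 2352 CPM in GW-Veh-PBS. Its log2 fold change was -1.95 ± 0.24 (edgeR adjusted p = 7.85e-05), or 3.85-fold lower. P2ry13 had 1459, 1776 and 1376 CPM with LPS against 2201, 2312, 2457 and 2411 CPM with PBS, with no overlap (-0.61 ± 0.14, edgeR adjusted p = 0.0108). That call was lost without GW-Veh-LPS replicate 4 (-0.56, adjusted p = 0.0686).

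The other 5 genes were not called by edgeR in GW mice with vehicle. P2ry6 averaged 583 ± 22.9 CPM in GW-Veh-LPS (SD, n = 3) and 536 ± 57.4 CPM in GW-Veh-PBS (n = 4), with overlapping libraries. P2rx4 averaged 189 ± 1.11 CPM in GW-Veh-LPS and 195 ± 19 CPM in GW-Veh-PBS. Adora3 averaged 82.3 ± 13.2 CPM in GW-Veh-LPS and 82.2 ± 13.2 CPM in GW-Veh-PBS. Entpd1 averaged 575 ± 39.8 CPM with LPS and 693 ± 86.8 CPM with PBS (-0.27 ± 0.15, edgeR adjusted p = 0.274). Limma's voom with quality weights called Entpd1 lower there (-0.34, voom adjusted p = 0.028), among 3809 genes in all. P2rx7 averaged 193 ± 24.7 CPM in GW-Veh-LPS and 191 ± 29.5 CPM in GW-Veh-PBS. Of the microglial markers, 4 of 9 were called lower, and their sum was 22667 to 30962 CPM in GW-Veh-LPS against 33974 to 37425 CPM in GW-Veh-PBS. Among markers of other cells, 3 border macrophage genes (F13a1, Cd163 and Lyve1) were called higher, and 5 erythroid, 2 endothelial, 1 border macrophage, 1 oligodendrocyte and 1 neuronal gene lower. The part of these shifts in the values of the 8 genes was not tested.

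With CBD, none of the 8 genes was called between LPS and PBS by edgeR, against 0.417% of all tested genes. At an unadjusted p under 0.05, 4 of the 8 passed, among 1821 genes in all. DESeq2 called none of the 8 and 344 genes in all, and limma's voom with quality weights called 4 of the 8 and 3779 genes in all. P2ry12 had 3516, 2453, 5076 and 3336 CPM in GW-CBD-LPS, against 4906, 5592 and 5516 CPM in GW-CBD-PBS. GW-CBD-LPS replicate 3 lay among the PBS libraries and the other 3 below them (-0.57 ± 0.20, edgeR adjusted p = 0.275). Gpr34 had 1496, 1046, 1938 and 1460 CPM in GW-CBD-LPS against 1854, 2339 and 2185 CPM in GW-CBD-PBS, where replicate 3 with LPS again overlapped (-0.52 ± 0.22, edgeR adjusted p = 0.378). P2ry13 also overlapped through LPS replicate 3, with 1806, 1572, 2376 and 1569 CPM in GW-CBD-LPS against 2373, 2555 and 2769 CPM in GW-CBD-PBS (-0.49 ± 0.14, edgeR adjusted p = 0.164). Without GW-CBD-LPS replicate 3, P2ry12 (-0.78, edgeR adjusted p = 0.0425) and P2ry13 (-0.64, adjusted p = 0.0127) were called lower. The number of all genes called in that fit is not given here.

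The remaining genes of the set differed little by LPS in mice with CBD. P2rx4 was the exception to overlap, with 191, 190, 199 and 186 CPM in GW-CBD-LPS against 153, 169 and 162 CPM in GW-CBD-PBS (0.25 ± 0.10, edgeR adjusted p = 0.329). Such separation upwards occurred in 8.37% of all tested genes. P2ry6 averaged 500 ± 60.2 CPM with LPS (n = 4) and 443 ± 18.7 CPM with PBS (n = 3). Entpd1 averaged 625 ± 97.8 CPM with LPS and 754 ± 57.9 CPM with PBS. P2rx7 averaged 194 ± 40.3 CPM in GW-CBD-LPS and 214 ± 22.2 CPM in GW-CBD-PBS, and Adora3 76.8 ± 8.57 and 79.7 ± 3.19 CPM in those groups. The summed microglial markers were 35201 to 38402 CPM in GW-CBD-LPS and 35900 to 37343 CPM in GW-CBD-PBS, and none of the 9 was called by edgeR.

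**Figure D2:**
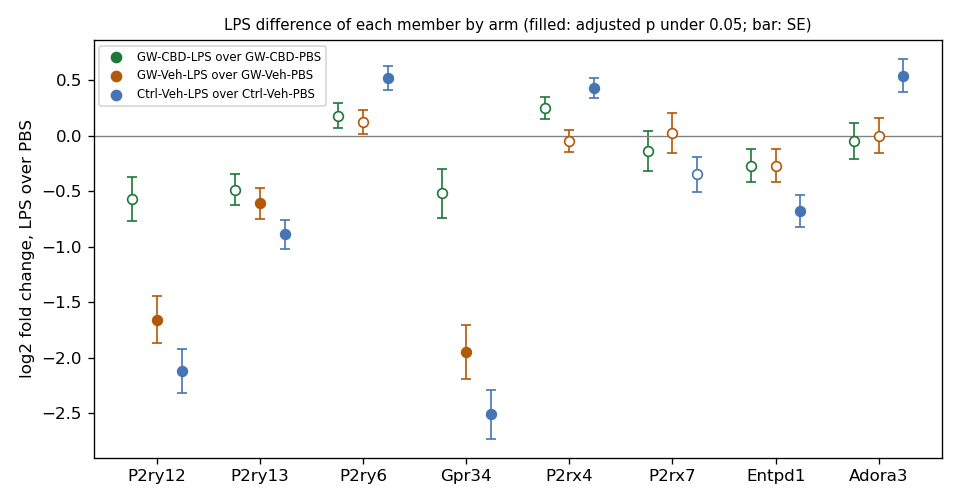
Log2 fold change of LPS over PBS for each gene, in GW mice with CBD (green), GW mice with vehicle (orange) and control mice with vehicle (blue). Bars are SE and filled points have an edgeR adjusted p under 0.05. P2ry12 and Gpr34 were at -0.57 and -0.52 with CBD, above -1.66 and -1.95 in GW mice with vehicle and -2.12 and -2.51 in control mice.

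Whether the LPS difference itself depended on the arm was tested by interaction. Between GW-CBD mice and control mice the LPS difference of P2ry12 was less negative by 1.55 ± 0.28 on the log2 scale (edgeR adjusted p = 0.00829) and that of Gpr34 by 1.99 ± 0.31 (edgeR adjusted p = 0.00361). These 2 of the 8 genes were called, against 1.98% of all tested genes (0.948% higher), and both held whichever single library was left out. The next largest interactions were not called. They were Adora3 at -0.59 ± 0.22 (edgeR adjusted p = 0.176), Entpd1 at 0.41 ± 0.20 (adjusted p = 0.33) and P2ry13 at 0.41 ± 0.19 (adjusted p = 0.313). This contrast differs in the GW agents and in CBD at once, so the 2 treatments cannot be told apart in it.

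Within GW mice, the interaction of CBD with LPS had the same direction. It was 1.43 ± 0.32 for Gpr34 (edgeR adjusted p = 0.0715) and 1.09 ± 0.29 for P2ry12 (edgeR adjusted p = 0.118), and none of the 8 genes was called, against 0.0181% of all tested genes. DESeq2 called both (Gpr34 adjusted p = 0.00365, P2ry12 adjusted p = 0.0282), among 381 genes in all. For the fits that leave out 1 library, the number of all genes called is not given here. Leaving out GW-CBD-LPS replicate 2 also brought both past the threshold in edgeR (Gpr34 1.57, adjusted p = 0.0213; P2ry12 1.24, adjusted p = 0.033), and leaving out GW-Veh-LPS replicate 2 did so for Gpr34 (1.60, adjusted p = 0.0403). The interaction of the GW agents with LPS called none of the 8 genes and 0% of all genes in edgeR, with 2099 genes, 4 of the 8 among them, at an unadjusted p under 0.05. DESeq2 called 59 genes and voom 111 there. Its values ran from -0.54 ± 0.22 for Adora3 to 0.56 ± 0.30 for Gpr34, and the smallest p belonged to P2rx4 (-0.48 ± 0.13, edgeR adjusted p = 0.311), which had risen in control mice and not passed the test in GW mice.

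Among LPS-treated GW mice, P2ry12 and Gpr34 were higher with CBD than with vehicle. The P2ry12 libraries of GW-CBD-LPS, at 2453 to 5076 CPM, all stood above the 1397 to 1787 CPM of GW-Veh-LPS (1.15 ± 0.21 on the log2 scale, 2.22-fold, edgeR adjusted p = 0.00519). The Gpr34 libraries, at 1046 to 1938 CPM, likewise stood above the 423 to 692 CPM of GW-Veh-LPS (1.39 ± 0.23, 2.63-fold, edgeR adjusted p = 0.00264). These were 2 of the 8 genes, against 2.31% of all tested genes (1.06% higher), and 6.51% of all tested genes separated upwards without overlap. The P2ry12 call was lost without GW-Veh-LPS replicate 3 (1.06, adjusted p = 0.06), and both were lost when only these 2 groups entered the fit (P2ry12 1.16, adjusted p = 0.0709; Gpr34 1.40, adjusted p = 0.0582). This comparison uses the same GW-Veh-LPS libraries as the LPS comparison within GW mice.

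P2ry13, which sits beside P2ry12 in the genome, was not called with CBD, at 1831 ± 380 CPM in GW-CBD-LPS (n = 4) and 1537 ± 211 CPM in GW-Veh-LPS (n = 3; 0.25 ± 0.14, edgeR adjusted p = 0.45). P2ry6 averaged 500 ± 60.2 and 583 ± 22.9 CPM in these groups (-0.22 ± 0.11, edgeR adjusted p = 0.392). The log2 fold changes of P2rx4, P2rx7, Entpd1 and Adora3 lay between -0.10 and 0.12. Of the microglial markers, Siglech and Sparc were called higher with CBD, and the summed list was 35201 to 38402 CPM in GW-CBD-LPS against 22667 to 30962 CPM in GW-Veh-LPS. The lowest sum was that of GW-Veh-LPS replicate 3, which stood below replicates 2 and 4 in Olfml3 (471 CPM, against 3615 and 2835), Fcrls (928, against 2404 and 2473) and Slc2a5 (270, against 866 and 791). Of the markers of other cells, the border macrophage gene Cd163 was called lower. The part of these shifts in the P2ry12 and Gpr34 values was not tested.

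Set against LPS-treated control mice, GW-CBD-LPS mice had higher P2ry12, Gpr34 and Entpd1 and lower P2ry6 and Adora3. These 5 of the 8 genes were called, against 14.1% of all tested genes (6.97% higher and 7.11% lower). P2ry12 was 2.66-fold higher (1.41 ± 0.19, edgeR adjusted p = 1e-04) and Gpr34 3.89-fold higher (1.96 ± 0.21, edgeR adjusted p = 1.69e-05). Entpd1 had 690, 544, 726 and 538 CPM in GW-CBD-LPS against 343, 520, 515 and 455 CPM in Ctrl-Veh-LPS (0.45 ± 0.14, edgeR adjusted p = 0.0324). P2ry6 had 464, 443, 516 and 578 CPM against 801, 617, 689 and 666 CPM (-0.47 ± 0.11, edgeR adjusted p = 0.0052). Adora3 had 80, 65.1, 76.5 and 85.4 CPM against 149, 97.4, 98.6 and 116 CPM (-0.59 ± 0.15, edgeR adjusted p = 0.0128). For all 5 genes the groups did not overlap, as for 7.22% of all tested genes upwards and 7.76% downwards.

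P2ry13 (0.34 ± 0.13, edgeR adjusted p = 0.0909), P2rx4 (-0.22 ± 0.09, adjusted p = 0.104) and P2rx7 (0.45 ± 0.17, adjusted p = 0.0721) were not called, though the P2rx4 libraries were lower without overlap. The microglial markers moved as well: 6 of the 9 were called higher (Siglech, Sall1, Slc2a5, Tmem119, Cx3cr1 and Fcrls), and their sum was 35201 to 38402 CPM in GW-CBD-LPS against 21740 to 29686 CPM in Ctrl-Veh-LPS. Of the markers of other cells, Cnp (oligodendrocyte) and Pecam1 (endothelial) were called higher, and Ngp (neutrophil) and Lyve1 (border macrophage) lower. Ngp stood at 831 CPM in Ctrl-Veh-LPS replicate 1, against 0.132 to 3.36 CPM in the other Ctrl-Veh-LPS libraries. The part of these shifts in the values of the 8 genes was not tested.

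Some of these calls rested on single libraries or on the fit. Without Ctrl-Veh-LPS replicate 1, which had raised neutrophil markers, Entpd1 (0.33, edgeR adjusted p = 0.128) and Adora3 (-0.44, adjusted p = 0.0677) were no longer called and 3 of the 8 remained. Entpd1 was also lost without Ctrl-Veh-LPS replicate 4 (0.44, edgeR adjusted p = 0.0703), GW-CBD-LPS replicate 1 (0.40, adjusted p = 0.103) or GW-CBD-LPS replicate 3 (0.37, adjusted p = 0.108), without the 3 neutrophil-marked libraries (0.35, adjusted p = 0.0917) and with no low count filter (0.48, adjusted p = 0.0537). With the compared groups only, P2ry6 (-0.44, edgeR adjusted p = 0.0636), Adora3 (-0.56, adjusted p = 0.0548) and Entpd1 (0.47, adjusted p = 0.11) were not called.

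Between GW mice and control mice given vehicle and LPS, none of the 8 genes was called by edgeR, and neither was any other gene (0% of all tested genes). An unadjusted p under 0.05 was reached by 2267 genes, 6 of the 8 among them, and DESeq2 called 147 genes and voom 324. P2rx7 and Entpd1 were higher without overlap, and P2ry6, P2rx4 and Adora3 lower without overlap, where 6.29% and 6.25% of all tested genes separated upwards and downwards. Adora3 had 71.1, 96.9 and 78.9 CPM in GW-Veh-LPS against 149, 97.4, 98.6 and 116 CPM in Ctrl-Veh-LPS (-0.49 ± 0.16, edgeR adjusted p = 0.31). P2rx7 had 182, 222 and 176 CPM against 122, 153, 167 and 125 CPM (0.45 ± 0.18, edgeR adjusted p = 0.324). P2rx4 was 190, 190 and 188 CPM in GW-Veh-LPS against 235, 216, 205 and 237 CPM in Ctrl-Veh-LPS (-0.24 ± 0.10, edgeR adjusted p = 0.331). The other 3 genes overlapped, with differences of 0.26 ± 0.20 for P2ry12, 0.08 ± 0.14 for P2ry13 and 0.57 ± 0.22 for Gpr34 (edgeR adjusted p = 0.54, 0.8 and 0.324). Entpd1 differed by 0.33 ± 0.15 and P2ry6 by -0.25 ± 0.11 (edgeR adjusted p = 0.351 and 0.353). In Adora3 the gap between the nearest libraries of the 2 groups was under 1 CPM.

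Without LPS, the 8 genes were close to level in the 3 arms. In GW-Veh-PBS against Ctrl-Veh-PBS, none of the 8 and 0% of all tested genes were called by edgeR (621 genes, 1 of the 8 among them, at an unadjusted p under 0.05; none by DESeq2 or voom), and the log2 fold changes ran from -0.20 ± 0.19 for P2ry12 to 0.24 ± 0.09 for P2rx4. In GW-CBD-PBS against Ctrl-Veh-PBS, none of the 8 and again 0% of all genes were called (923 genes and none of the 8 at an unadjusted p under 0.05; 7 genes by DESeq2, 15 by voom), with values from -0.14 ± 0.20 for P2ry12 to 0.24 ± 0.18 for P2rx7. In GW-CBD-PBS against GW-Veh-PBS, none of the 8 and 0% of all genes were called (1569 genes, 2 of the 8 among them, at an unadjusted p under 0.05; none by DESeq2, 217 by voom). There P2ry6 had 438, 428 and 464 CPM in GW-CBD-PBS against 617, 484, 511 and 532 CPM in GW-Veh-PBS (-0.27 ± 0.11, edgeR adjusted p = 0.524). P2rx4 had 153, 169 and 162 CPM against 171, 202, 216 and 193 CPM (-0.28 ± 0.10, edgeR adjusted p = 0.524). Both were separated without overlap, as were 5% of all tested genes in that direction.

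The balance of the receptors within a library is independent of how the libraries were scaled against each other, and it is given here as a description without a test. The ratio of P2ry12 to P2ry6, the ADP and UDP receptor genes, averaged 8.14 ± 2.26 per kb in GW-CBD-LPS and 13.7 ± 1.08 in GW-CBD-PBS. In GW mice with vehicle it was 3.17 ± 0.49 with LPS and 10.8 ± 1.55 with PBS, and in control mice 2.26 ± 0.636 with LPS and 13.8 ± 2.16 with PBS. No GW-CBD-LPS library, the lowest at 6.27, reached down to the highest vehicle LPS library at 3.64.

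The 2 ADP receptor genes came closer to each other with LPS in the vehicle arms. P2ry12 was 1.93 ± 0.267 times P2ry13 per kb in GW-CBD-LPS and 2.07 ± 0.0986 times in GW-CBD-PBS. With vehicle the ratio was 1.07 ± 0.25 in GW-Veh-LPS and 2.17 ± 0.334 in GW-Veh-PBS, and 0.926 ± 0.17 in Ctrl-Veh-LPS and 2.16 ± 0.156 in Ctrl-Veh-PBS, so in LPS-treated control mice the pair stood at about the same level. P2ry12 and Gpr34 kept closer proportions, with a P2ry12 to Gpr34 ratio of 1.97 ± 0.122 in GW-CBD-LPS, 2.4 ± 0.296 in GW-Veh-LPS and 2.98 ± 0.343 in Ctrl-Veh-LPS, against 1.93 to 2.21 in the means of the 3 PBS groups. The ratio of P2rx7 to P2rx4 was 1.19 ± 0.236 in GW-CBD-LPS, 1.2 ± 0.149 in GW-Veh-LPS and 0.756 ± 0.17 in Ctrl-Veh-LPS, against 1.28 ± 0.167 in Ctrl-Veh-PBS. Only the LPS-treated control group had a mean below 1, that is, more P2rx4 than P2rx7 per kb, though the lowest GW-CBD-LPS library was at 0.861. Where a ratio lies relative to 1 depends on the merged exon lengths used, 5970 bases for P2rx7 and 7025 for P2rx4. The lengths of the transcripts expressed here were not measured.

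**Figure D3:**
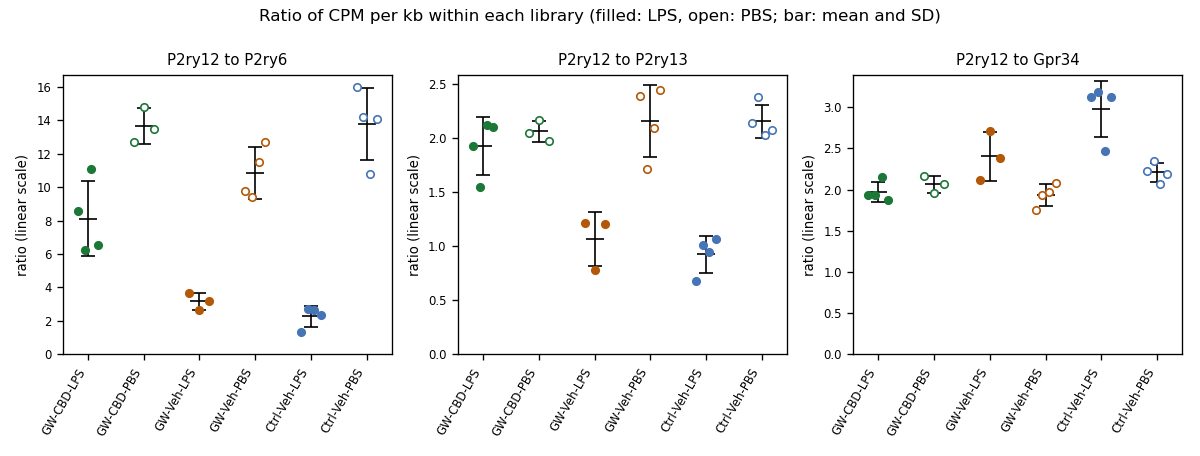
Ratios of CPM per kb within each library (linear axes from 0) for P2ry12 to P2ry6, P2ry12 to P2ry13 and P2ry12 to Gpr34, with filled points for LPS, open points for PBS and bars for mean and SD. The GW-CBD-LPS libraries lie at 6.27 to 11.1 for P2ry12 to P2ry6, above the 1.33 to 3.64 of the vehicle LPS libraries.

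Summed per kb, the 8 transcripts came to 3213 ± 765 CPM in GW-CBD-LPS, 4497 ± 332 in GW-CBD-PBS, 1902 ± 65.4 in GW-Veh-LPS, 4371 ± 490 in GW-Veh-PBS, 1696 ± 213 in Ctrl-Veh-LPS and 4788 ± 649 in Ctrl-Veh-PBS. The median share of P2ry12 in that sum was 43.6% in GW-CBD-LPS, 35.4% in GW-Veh-LPS and 32.8% in Ctrl-Veh-LPS, and 45.9% to 47.9% in the PBS groups. The median share of P2ry6 was 5.7% in GW-CBD-LPS, 11.1% in GW-Veh-LPS and 13.3% in Ctrl-Veh-LPS, against 3.42% to 4.27% in the PBS groups.

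Genes that overlap the receptors were examined because the sources used here do not state the strand setting of the counting, and reads of a gene and of its opposite-strand partner cannot be told apart with certainty. Med12l, around P2ry12 and P2ry13, was low, with means of 14.3 to 24.1 CPM over the groups, and its LPS difference in control mice was -0.59 ± 0.20 (edgeR adjusted p = 0.0447). Cask, a scaffold kinase gene around Gpr34, averaged 29.8 ± 4.59 CPM in Ctrl-Veh-LPS and 64.4 ± 6.92 CPM in Ctrl-Veh-PBS (-1.11 ± 0.15, edgeR adjusted p = 2.15e-05). It was also higher in GW-CBD-LPS, at 50.3 ± 9.19 CPM, than in Ctrl-Veh-LPS (0.75 ± 0.14, edgeR adjusted p = 0.00161). Gpr82, the neighbour of Gpr34 within Cask, stayed below 1 CPM in the mean of every group, and Tmigd3, which overlaps Adora3 on the same strand and could share its reads, averaged 1.16 to 1.84 CPM. P2ry14, a UDP-sugar receptor gene near P2ry12, averaged 0.953 to 3.01 CPM. The levels of these partners were small beside those of P2ry12, P2ry13 and Gpr34, which reached 247 CPM in their lowest library.

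The pathway was followed further in 3 lists that contain none of the 8 genes. They were 32 other nucleotide and adenosine genes (25 tested), 30 other lysophospholipid genes (25 tested) and 17 genes of receptor coupling such as G protein subunits and regulators (all tested). In control mice with LPS, the nucleotide list had 6 genes higher and 3 lower, the lysophospholipid list 1 higher and 10 lower, and the coupling list 2 higher and 3 lower, where 10.8% of all tested genes were higher and 9.62% lower. Their median log2 fold changes were 0.28, -0.48 and -0.16, against -0.02 over all tested genes. Without the 3 neutrophil-marked libraries, the nucleotide list had 5 genes higher and 2 lower. Adora1, P2ry14 and Alpl were lost there (edgeR adjusted p of 0.0617 to 0.246). S1pr2, Abhd16a, S1pr4 and Lpar1 of the lysophospholipid list were lost as well (edgeR adjusted p of 0.0784 to 0.295). Some counted genes were barely detected, such as S1pr4 at 0.376 ± 0.281 CPM in Ctrl-Veh-LPS and 2.66 ± 4.24 in Ctrl-Veh-PBS. P2ry2, a receptor gene for ATP and UTP, averaged 42.6 ± 18.7 CPM in Ctrl-Veh-LPS and 4.83 ± 1.48 CPM in Ctrl-Veh-PBS (3.14 ± 0.49, edgeR adjusted p = 0.000127). Panx1, a channel through which ATP leaves cells, averaged 30 ± 3.29 and 15.4 ± 1.16 CPM in the same groups (0.96 ± 0.14, edgeR adjusted p = 4.3e-05), and the ATP channel gene P2rx1 averaged 3.97 ± 1.03 and 11 ± 1.56 CPM (-1.47 ± 0.26, edgeR adjusted p = 0.000358).

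Of the lysophospholipid genes in control mice, S1pr1, a sphingosine 1-phosphate receptor gene, was 4.47-fold lower at 31.7 ± 6.44 CPM in Ctrl-Veh-LPS and 142 ± 15.6 CPM in Ctrl-Veh-PBS (-2.16 ± 0.24, edgeR adjusted p = 4.63e-06). The lipid phosphatase genes Plpp1 (-0.91 ± 0.14, edgeR adjusted p = 0.000114) and Plpp3 (-1.35 ± 0.22, adjusted p = 0.000156) fell as well. In the coupling list, Rgs2 (-0.93 ± 0.15, edgeR adjusted p = 0.000132) and Rgs10 (-1.07 ± 0.24, adjusted p = 0.00272), regulators that speed the shut-off of G proteins, were lower, and the arrestin gene Arrb2 was higher (0.59 ± 0.13, adjusted p = 0.00237).

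In GW mice with vehicle the LPS counts were 4 higher and 2 lower in the nucleotide list, 0 higher and 6 lower in the lysophospholipid list and 0 higher and 2 lower in the coupling list, where 4.45% of all tested genes were higher and 5.07% lower. P2ry2 had 14.6, 88.2 and 18.7 CPM in GW-Veh-LPS against 3.48, 6.52, 9.48 and 3.5 CPM in GW-Veh-PBS, so replicate 3 with LPS stood far above the other 2 (2.82 ± 0.50, edgeR adjusted p = 0.00145). The nucleoside transporter gene Slc29a2 (1.37 ± 0.25, edgeR adjusted p = 0.00172) and the nucleotidase gene Entpd6 (0.69 ± 0.14, adjusted p = 0.00379) were also higher. Plpp1 (-1.16 ± 0.16, edgeR adjusted p = 0.000107), S1pr1 (-1.56 ± 0.26, adjusted p = 0.000883) and the lysophospholipid acyltransferase gene Lpcat2 (-0.75 ± 0.15, adjusted p = 0.00426) were lower, as were Rgs2 (-1.03 ± 0.16, adjusted p = 0.000409) and Rgs10 (-1.40 ± 0.26, adjusted p = 0.00204). With only the 2 compared groups in the fit, the nucleotide list had 2 genes higher and 0 lower, and the lysophospholipid list 0 higher and 2 lower. Entpd6 and Lpcat2 were among the calls lost there (edgeR adjusted p = 0.0516 and 0.0543). P2rx6, counted as lower in the nucleotide list, was barely detected, at 0.0482 ± 0.0835 CPM in GW-Veh-LPS and 0.631 ± 0.409 CPM in GW-Veh-PBS. In GW mice with CBD, none of the tested genes of the 3 lists was called between LPS and PBS by edgeR. DESeq2 called 2 higher in the nucleotide list, and voom called 5 higher and 1 lower in the nucleotide list and 3 higher and 4 lower in the lysophospholipid list.

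With CBD against vehicle in LPS-treated GW mice, 3 of 25 nucleotide genes were lower, 2 of 25 lysophospholipid genes higher and 1 of 17 coupling genes higher, where 1.06% of all tested genes were higher and 1.24% lower. P2ry2 was at 4.5, 7.77, 4.18 and 5.67 CPM in GW-CBD-LPS, below all 3 GW-Veh-LPS libraries (-2.87 ± 0.50, edgeR adjusted p = 0.00373). Entpd6 averaged 33.2 ± 5.67 and 54.8 ± 8.5 CPM in these groups (-0.72 ± 0.14, edgeR adjusted p = 0.00752) and Panx1 17 ± 0.637 and 25 ± 6.35 CPM (-0.56 ± 0.14, adjusted p = 0.0424). Plpp1 averaged 75.2 ± 10.5 CPM in GW-CBD-LPS and 40.1 ± 3.62 CPM in GW-Veh-LPS (0.91 ± 0.15, edgeR adjusted p = 0.00295), Lpcat2 1844 ± 206 and 1136 ± 249 CPM (0.70 ± 0.15, adjusted p = 0.0171) and Rgs2 549 ± 112 and 345 ± 9.36 CPM (0.67 ± 0.16, adjusted p = 0.0263). Without GW-Veh-LPS replicate 3, P2ry2 (-1.59, edgeR adjusted p = 0.075), Entpd6 (-0.58, adjusted p = 0.084), Panx1 (-0.36, adjusted p = 0.37), Lpcat2 (0.54, adjusted p = 0.138) and Rgs2 (0.70, adjusted p = 0.112) were no longer called, and with only these 2 groups in the fit all 6 calls, Plpp1 included (adjusted p = 0.0582), were lost. The Panx1 and Rgs2 calls were also lost when most of the other single libraries of the 2 groups were left out, and that of Lpcat2 without GW-Veh-LPS replicate 4 or GW-CBD-LPS replicate 3.

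**Figure D4:**
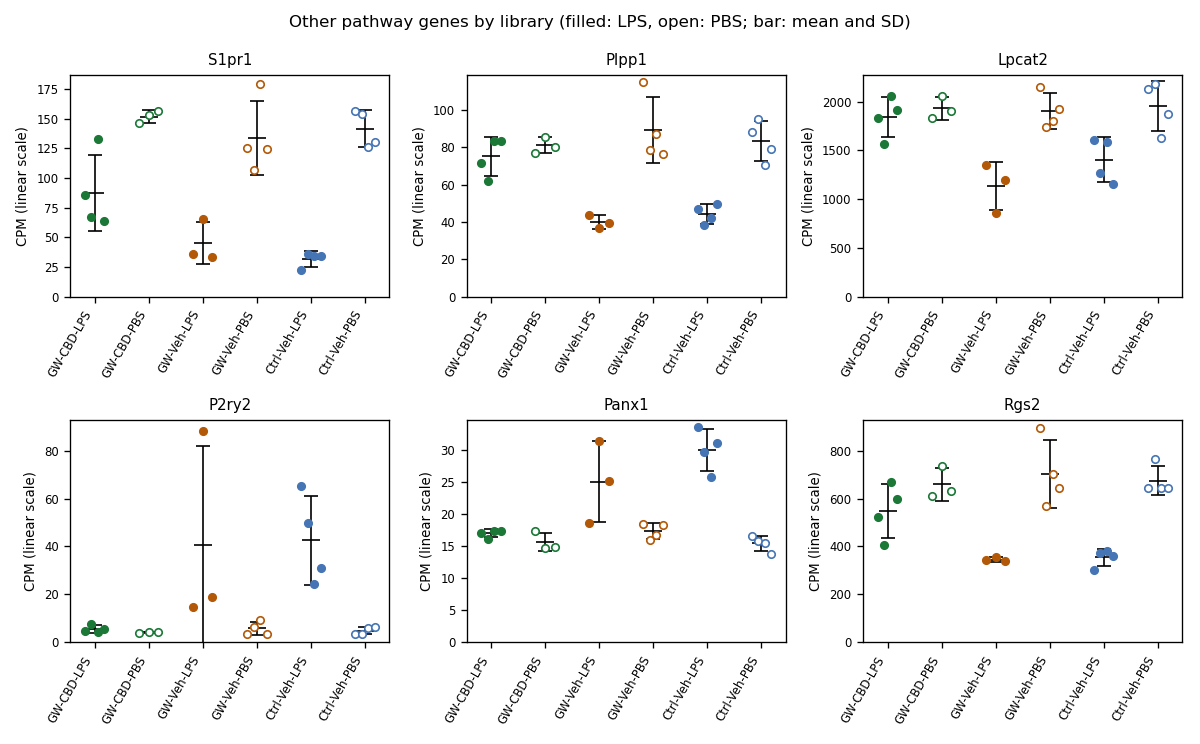
Level in CPM (linear axes from 0) of 6 other genes of the pathway in all libraries, with filled points for LPS, open points for PBS and bars for mean and SD, where the lower SD bar of P2ry2 in GW-Veh-LPS is cut at 0. S1pr1 averaged 87.5 ± 31.9 CPM in GW-CBD-LPS, 45.2 ± 17.8 in GW-Veh-LPS and 31.7 ± 6.44 in Ctrl-Veh-LPS, and P2ry2 was high in GW-Veh-LPS and Ctrl-Veh-LPS libraries alone.

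Against LPS-treated control mice, GW-CBD-LPS mice had 1 nucleotide gene higher and 5 lower, 7 lysophospholipid genes higher and 2 lower, and 3 coupling genes higher and 2 lower, where 6.97% of all tested genes were higher and 7.11% lower. S1pr1 averaged 87.5 ± 31.9 CPM in GW-CBD-LPS and 31.7 ± 6.44 CPM in Ctrl-Veh-LPS (1.46 ± 0.24, edgeR adjusted p = 4e-04). S1pr2 (0.90 ± 0.16, edgeR adjusted p = 0.000864), another receptor gene of that family, and Plpp1 (0.76 ± 0.14, adjusted p = 0.00113) were also higher. Panx1 (-0.82 ± 0.13, edgeR adjusted p = 0.000438), P2ry2 (-2.94 ± 0.49, adjusted p = 0.000467) and Entpd6 (-0.63 ± 0.13, adjusted p = 0.00319) were lower, as were Arrb2 (-0.64 ± 0.13, adjusted p = 0.0022) and Rgs1 (-1.09 ± 0.24, adjusted p = 0.00526), while Rgs2 was higher (0.63 ± 0.15, adjusted p = 0.00642). In the interaction of LPS with these 2 arms, Plpp3, S1pr2, S1pr1 and Plpp1 were called higher and Panx1 and P2ry2 lower, and no coupling gene was called by edgeR. All 6 calls were lost without GW-CBD-PBS replicate 2, 3 or 4. All but Plpp3 were lost without replicate 1 or 4 of Ctrl-Veh-LPS or replicate 1 or 3 of GW-CBD-LPS, and 3 or 4 of the 6 without Ctrl-Veh-PBS replicate 1, 2 or 4, Ctrl-Veh-LPS replicate 2 or GW-CBD-LPS replicate 4. All but Plpp1 were lost without the 3 neutrophil-marked libraries (edgeR adjusted p of 0.0509 for Plpp3, 0.0751 for P2ry2, 0.0761 for S1pr1, 0.0788 for Panx1 and 0.109 for S1pr2), as were Plpp1, S1pr2 and P2ry2 with the replicate block (edgeR adjusted p of 0.0748, 0.0522 and 0.0522). In the comparison of the 2 LPS groups, without Ctrl-Veh-LPS replicate 1 the lysophospholipid list had 4 genes higher and 0 lower, the nucleotide list 1 and 3, and the coupling list 1 and 2.

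Each gene was also matched to the tested genes whose log2 CPM followed it most closely over the 22 libraries, by the root mean square (RMS) difference after centring each gene on its own mean, among 8075 genes averaging 10 CPM or more. Likeness by this measure is a description of shared levels across libraries that share treatments. P2ry12, whose own RMS deviation was 0.88 log2 units, was followed most closely by Tceal1 and Chst8 at 0.22 and Tmem204 at 0.24, and Gpr34 was the nearest of the set at 0.24. Gpr34 itself, with a deviation of 1.07, was nearest to P2ry12, ahead of Klhdc8b at 0.25 and Asb10 at 0.27. P2ry13 (own deviation 0.39) was matched by Tmem206 at 0.09, P2ry6 (0.23) by Xbp1 at 0.07 and P2rx4 (0.18) by Grn and Lrpap1 at 0.09. P2rx7 (own deviation 0.28) was matched by Rnf216 at 0.08, Entpd1 (0.30) by Zbtb38 at 0.10 and Adora3 (0.27) by Arl6ip4 and Med8 at 0.11. Xbp1, a transcription factor gene of the unfolded protein response, averaged 422 ± 43.9 CPM in GW-CBD-LPS, 510 ± 37.4 in GW-Veh-LPS, 584 ± 74.6 in Ctrl-Veh-LPS and 408 ± 32.2 in Ctrl-Veh-PBS, the same order as P2ry6 over these 4 groups. Because Xbp1 was picked for its likeness to P2ry6 over these libraries, the shared order is no separate result. Within the set, P2ry13 and Entpd1 were nearest to each other at 0.19, and P2ry6 and Adora3 at 0.16.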

How the data were processed

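Per the labels' protocols, stranded poly(A) libraries of sorted microglia were sequenced as paired reads, and the authors aligned them to GRCm38/mm10 and deposited raw read counts per gene. The sources used here do not state the aligner, counting tool, strand setting or annotation. Counts were used as deposited. Genes were filtered with filterByExpr by group, which left 16554 genes and at least 99.9% of each library's counts. The main test was edgeR 4.0.16 (R 4.3.3) with TMM scaling and a quasi-likelihood fit over all 22 libraries and 6 groups, with 12 contrasts (9 of 2 groups, 3 interactions) and Benjamini-Hochberg adjustment over all tested genes within each contrast at 0.05. The common biological coefficient of variation was 0.352. Fold changes are log2, with SE from the quasi-likelihood F statistic. CPM used TMM library sizes, and CPM per kb divided by merged exon length in GENCODE M21. Replicate numbers are those of the library names. Libraries of a group differed by far more than sampling noise (chi-square per degree of freedom 11.7 to 234.3), so none was counted as a duplicate. Alternatives were RLE scaling, no low count filter, DESeq2 1.42.0, limma 3.58.1 voom with quality weights, the compared groups only, the replicate block, leaving out the 3 libraries with raised neutrophil markers, and leaving out each library. The fit was also run on simulated counts, in which no library was made to deviate from its group. The outcome of that run is not given here.

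The 8 genes, the lists and the alternatives were chosen with earlier results of these data known. All 8 genes enter every comparison, some given only by the range of their values; from each list, the up to 3 called genes with the smallest p per comparison of 2 groups are named, and for each of the 8 genes up to 3 genes with the smallest RMS difference, leaving out predicted genes. Other genes named are overlapping or neighbouring genes, cell type markers and list genes whose calls were lost in an alternative fit. Of the gene symbols, 27 read as calendar dates and were looked up again by identifier. A gene of the microglial marker list is not reported here and was left out of the summed levels.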

Additional observations from a re-analysis of the deposited data

Results flagged for a closer look

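The LPS difference of P2ry12 differed between GW mice with CBD and control mice by 1.55 on the log2 scale in the interaction test (edgeR adjusted p = 0.00829), where each GW-CBD-LPS library lay above each Ctrl-Veh-LPS library. The LPS difference of Gpr34 differed between the same arms by 1.99 (edgeR adjusted p = 0.00361). Both were singled out because the difference between the arms itself passed the test. No library of any group of 4 stood apart from its group in any of the 8 genes by Dixon's test, and groups of 3 were not examined that way.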

How the results depend on the processing

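Over the alternatives, none of the 294 values of called genes of the set took another sign; 9 of 161 lost the call when 1 library was left out and 9 of 133 under the other settings. Of the uncalled values, 34 became called, 21 of them with voom, and 82 of 1552 values compared, with main sizes of at most 0.12, changed sign without being called in either fit. Limma voom with quality weights called 4 of the 8 genes for LPS in GW-CBD mice, where it called 3779 genes in all. It also called P2rx7 for LPS in control mice (4494 genes in all) and Entpd1 for LPS in GW mice (3809). It called 1 for GW with LPS (324 in all), 1 for CBD with PBS (217) and 5 for CBD with LPS (3512). For GW-CBD against control with LPS it called 8 (4736 in all). In the interactions it called 1 for GW by LPS (111 in all), 3 for CBD by LPS (2287) and 5 for LPS in GW-CBD against control (2194). DESeq2 called 2 for the CBD by LPS interaction (381 genes in all). With the compared groups only, 0 were called for CBD with LPS and 2 for GW-CBD against control with LPS. Leaving out 1 library gave 6 to 7 calls for LPS in control mice, 2 to 3 for LPS in GW mice, 0 to 2 for LPS in GW-CBD mice, 1 to 2 for CBD with LPS, 3 to 7 for GW-CBD against control with LPS, 0 to 2 for the CBD by LPS interaction and 2 to 2 for the LPS interaction of GW-CBD against control. The cause of these changes was not tested, other than that fewer libraries enter the smaller fits. For the fits with the compared groups only or with 1 library left out, the number of all genes called is not given here. Whether the counts of the 8 genes moved with that number was not tested. RLE scaling moved the median log2 fold change of all genes by less than 0.1.

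No pairing by replicate number was seen in the correlation of deviations from the group mean. Over 51 same-numbered pairs of different groups it was -0.29 to 0.31 (median 0.01, 11 pairs over 0.1). Over 150 differently numbered pairs it was -0.31 to 0.39 (median 0.00, 29 pairs over 0.1). A weaker pairing, or one limited to some genes, was not tested. With the replicate block, 7 of the 8 genes were called for LPS in control mice, 3 for LPS in GW mice, 2 for CBD with LPS, 5 for GW-CBD against control with LPS and 0 for LPS in GW-CBD mice, the same counts as without it. The number of all genes called with the block is not given here. Depth did not limit the 8 genes, whose lowest count was 2309 reads, but 3 or 4 libraries per group limited every test.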
